A study of Mus musculus with 36 samples.

Results

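The 28 cholesterol synthesis and uptake genes described here were chosen by name, as the rows of the deposited gene table that map to these symbols. All 28 were found among the 54347 genes of the table, and all 28 passed the filter on low values that left 15340 genes for testing. They comprised 19 enzymes, of which 8 act in the mevalonate and isoprenoid steps and 11 in the sterol steps, 4 regulators of the sterol regulatory element-binding protein (SREBP) pathway, and 5 genes of sterol transport, LDL receptor turnover and phospholipid remodelling. RNA was sequenced from 36 libraries of primary cells from C57Bl/6 mice, the strain that the labels give for every sample, with no genetic change named. The study's methods give the substrain C57BL/6NHsd for the hepatocytes alone. They place the animals in Wageningen, but add that some primary cells, not named, came from C57BL/6N mice in Munich. Site may therefore also differ with cell type. The cells were adipocytes grown from the stromal vascular fraction of inguinal fat, macrophages grown from bone marrow in the presence of L929-conditioned medium, myotubes formed from hindlimb myoblasts, and hepatocytes from perfused liver, all of male mice. In each cell type 3 libraries received PBS (control), 3 received 5 mM βOHB, the (R) form of β-hydroxybutyrate as its sodium salt, and 3 received 5 mM butyrate, also as its sodium salt, for 6 h in every case. Adipocytes and macrophages were treated in the same kind of medium and myotubes and hepatocytes each in another, so that for the latter cell types medium, and for hepatocytes substrain, cannot be told apart from cell type. Fat of several mice was combined for the adipocytes, the labels do not say whether the libraries of a group came from separate animals or cultures, and p-values therefore measure the spread between these libraries, which may be technical.

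Cholesterol is built from acetyl units through mevalonate, farnesyl diphosphate and squalene to the sterols, and a side branch gives geranylgeranyl diphosphate for protein prenylation. Transcription of nearly the whole pathway is driven by SREBP2, encoded by Srebf2, which is held in the endoplasmic reticulum by its escort Scap and the INSIG proteins when sterols are plentiful and is released and cleaved when sterols are low. Insig1 is itself an SREBP target, whereas the liver also makes an Insig2 transcript that falls when insulin is present. Butyrate, a short-chain fatty acid made by gut bacteria, is a known inhibitor of histone deacetylases. βOHB is a ketone body that carries a hydroxyl group which butyrate lacks.

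Library totals lay between 18366289 and 23221473 estimated counts. Values are given as CPM, the counts of a gene relative to the library total after TMM scaling (the trimmed mean of M values). The defining markers of each labelled cell type summed to at least 7129 CPM in the adipocyte libraries, 10820 CPM in the macrophage libraries, 13260 CPM in the myotube libraries and 31480 CPM in the hepatocyte libraries. Markers of the labelled and of other cell types moved with treatment. With butyrate 3 of the 6 adipocyte markers were lowered in adipocytes, their sum going from 9085 to 9947 CPM in controls to 7129 to 8807 CPM, and 3 of the 6 myotube markers were lowered in myotubes, from 21070 to 25990 CPM to 13260 to 18270 CPM. The 4 proliferation markers summed to 33.8 to 73.4 CPM in control myotubes, 20.5 to 25.6 CPM with βOHB, where 2 were lowered, and 15.8 to 21.1 CPM with butyrate, where 3 were lowered. With butyrate all 4 endothelial markers were lowered in hepatocytes, their sum going from 64.6 to 72.0 CPM in controls to 19.7 to 23.3 CPM, and 2 of the 4 were lowered in adipocytes, from 176.0 to 201.7 CPM to 116.8 to 134.2 CPM. In macrophages all 4 proliferation markers were lowered, from 1394 to 1428 CPM to 557.5 to 656.0 CPM, 4 of the 8 macrophage markers were lowered, from 17340 to 17510 CPM to 10820 to 11370 CPM, and all 6 myotube markers were raised, from 6.14 to 12.3 CPM to 19.1 to 56.1 CPM. None of the endothelial or proliferation markers was at 0 in these groups. The part of these RNAs in the butyrate values below was not tested. Myotube libraries held RNA of markers of other cell types in unequal amounts. The 8 macrophage markers summed to 120.6 to 320.9 CPM in the control, 45.0 to 119.7 CPM in the βOHB and 16.9 to 78.5 CPM in the butyrate myotubes, and all 8 were called lower under each compound, with every marker above 0 in every group. The 6 hepatocyte markers summed to at most 0.176 CPM in control myotubes but to 29.4, 547.9 and 122.7 CPM in the 3 butyrate libraries and to 22.5 CPM in βOHB replicate 3. Fewer cells of a type and less RNA per cell cannot be told apart in such bulk samples. Nor can RNA carried by other cells be told apart from expression of these markers in the myotubes.

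In control cells the summed level of the enzymes was highest in hepatocytes. The 19 enzymes together gave 4273 ± 149 CPM there (SD, n = 3), against 1569 ± 108 CPM in adipocytes, 1087 ± 14.5 CPM in macrophages and 1056 ± 33.7 CPM in myotubes. Macrophages, at 1100, 1072 and 1090 CPM, and myotubes, at 1094, 1046 and 1029 CPM, overlapped and were not separable in this sum. On a per-length scale (TPM, from the union of a gene's exons), Hmgcs1, the enzyme that makes HMG-CoA, had the highest level of the 28 genes in hepatocytes (411.7 ± 30.0) and myotubes (108.7 ± 7.79, with Npc2 at 108.5 ± 13.9). Not all enzymes were highest in hepatocytes, since Ggps1 had 6.38 TPM there against 31.3 TPM in adipocytes, and 13.25 against 49.17 CPM. For Hsd17b7 and Ebp the order depended on the scale. They had 43.8 and 76.8 TPM in hepatocytes against 57.3 and 82.1 TPM in adipocytes, but 98.09 and 78 CPM against 97.35 and 63.19 CPM. The TPM difference for Ebp was smaller than its SD of 14.3 TPM in adipocytes. Npc2, a lysosomal cholesterol carrier, had the highest level in adipocytes (486.7 ± 20.9) and macrophages (522.9 ± 7.87). Insig1 and Insig2 stood in a different balance in each cell type on the same scale, with a level of Insig1 far above that of Insig2 in adipocytes (473.0 TPM), macrophages (117.0 and 27.1 TPM) and myotubes (96.0 and 40.7 TPM), but 189.2 and 194.1 TPM in hepatocytes.

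A promoter window was found for 23 of the 28 genes (RefSeq starts, GRCm38.p6, 29 windows). The letters searched on both strands of the 250 bases before each start were TCACNCCAC, a form of the sterol regulatory element (SRE), CCAAT, the letters recognised by NF-Y, and GGGCGG, the letters recognised by Sp1. CCAAT was present before a start of 21 of the 23 genes and in 21 of their 29 windows (72.4%), and in 33.8% of all 32851 windows. GGGCGG was likewise present for 21 genes and in 23 windows (79.3%), and in 32.7% of all windows. The SRE letters were found in the window of Hmgcs1 alone among the members, and in 1.05% of all windows. The sequences below are those of Hmgcs1, of the pair of INSIG genes, whose RNAs moved in opposite directions in macrophages and hepatocytes, and of Dhcr7 and Lpcat3, which were raised by butyrate in all 4 cell types. Each is written 5′ to 3′ on the gene's strand and stops before the first annotated transcribed base, and capitals mark a match to any of the searched letters on either strand. A match is only a match of letters. Insig2 and Dhcr7 had further windows that are not printed. In those, GGGCGG matched at 128 and 6 bases before a start for Insig2. For Dhcr7, CCAAT matched there at 85 and 49 bases and GGGCGG at 187, 171 and 20 bases. For Lpcat3, CCAAT matches at 50 and 8 bases and GGGCGG matches at 69 and 22 bases before the start lie beyond the printed stretch. The windows were Hmgcs1 at chr13:119690101-119690350 (plus strand), Insig1 at chr5:28071162-28071362 (plus), Insig2 at chr1:121332590-121332839 (minus), Dhcr7 at chr7:143822917-143823144 (plus) and Lpcat3 at chr6:124662854-124663026 (plus).
Hmgcs1: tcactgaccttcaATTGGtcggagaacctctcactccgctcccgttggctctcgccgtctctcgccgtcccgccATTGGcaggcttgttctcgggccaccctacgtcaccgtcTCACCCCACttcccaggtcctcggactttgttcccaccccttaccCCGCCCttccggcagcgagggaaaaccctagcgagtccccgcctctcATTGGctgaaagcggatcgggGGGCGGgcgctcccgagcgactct
Insig1: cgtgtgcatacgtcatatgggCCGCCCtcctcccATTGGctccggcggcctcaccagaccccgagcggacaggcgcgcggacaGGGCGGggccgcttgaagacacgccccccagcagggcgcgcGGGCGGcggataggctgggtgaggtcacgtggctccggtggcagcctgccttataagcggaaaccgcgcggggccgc
Insig2: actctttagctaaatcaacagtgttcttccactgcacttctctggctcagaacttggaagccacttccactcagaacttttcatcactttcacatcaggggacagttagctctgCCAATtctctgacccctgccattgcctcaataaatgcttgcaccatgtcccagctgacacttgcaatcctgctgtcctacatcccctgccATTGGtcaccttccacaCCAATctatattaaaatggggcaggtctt
Dhcr7: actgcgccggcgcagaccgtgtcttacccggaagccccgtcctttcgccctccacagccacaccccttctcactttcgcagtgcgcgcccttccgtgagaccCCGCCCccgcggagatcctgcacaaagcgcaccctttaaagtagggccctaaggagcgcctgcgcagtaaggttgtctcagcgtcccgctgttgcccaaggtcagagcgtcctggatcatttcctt
Lpcat3: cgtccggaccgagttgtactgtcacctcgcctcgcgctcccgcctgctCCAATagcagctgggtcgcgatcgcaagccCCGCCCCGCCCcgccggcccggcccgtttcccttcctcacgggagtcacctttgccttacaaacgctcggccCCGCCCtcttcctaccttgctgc

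Butyrate changed the RNA of most of these genes in every cell type, but with a different makeup of rises and falls. In adipocytes 15 of the 28 genes rose and 1 fell, and in myotubes 16 rose and 1 fell. In macrophages 11 rose and 10 fell, and in hepatocytes 9 rose and 12 fell. The edgeR quasi-likelihood test with Benjamini-Hochberg adjustment over the 15340 genes was used, at an FDR below 0.05. Butyrate called 61% of all genes in adipocytes, 65% in macrophages, 66.5% in myotubes and 63.5% in hepatocytes, so that 16, 21, 17 and 21 of 28 genes (57.1%, 75%, 60.7% and 75%) were near the share among all genes. All genes were split evenly by direction, with 30.7% raised and 30.3% lowered in adipocytes, 31.9% and 33.2% in macrophages, 33.1% and 33.4% in myotubes, and 31% and 32.4% in hepatocytes. The median log2 fold change of the 28 genes was 0.31, 0.08, 0.32 and -0.09 in the same order of cell types, beside medians of 0 over all genes (-0.01 in hepatocytes). Scaling by library totals alone moved the median of all genes by 0.2 in macrophages and 0.13 in myotubes, where 66.7% and 61.8% of all calls were then rises in place of 49% and 49.8%, and the split of the members became 17 raised and 5 lowered in macrophages, 22 and 0 in myotubes, 19 and 1 in adipocytes, and 11 and 10 in hepatocytes, where the excess of falls was thus lost.

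**Figure D1:**
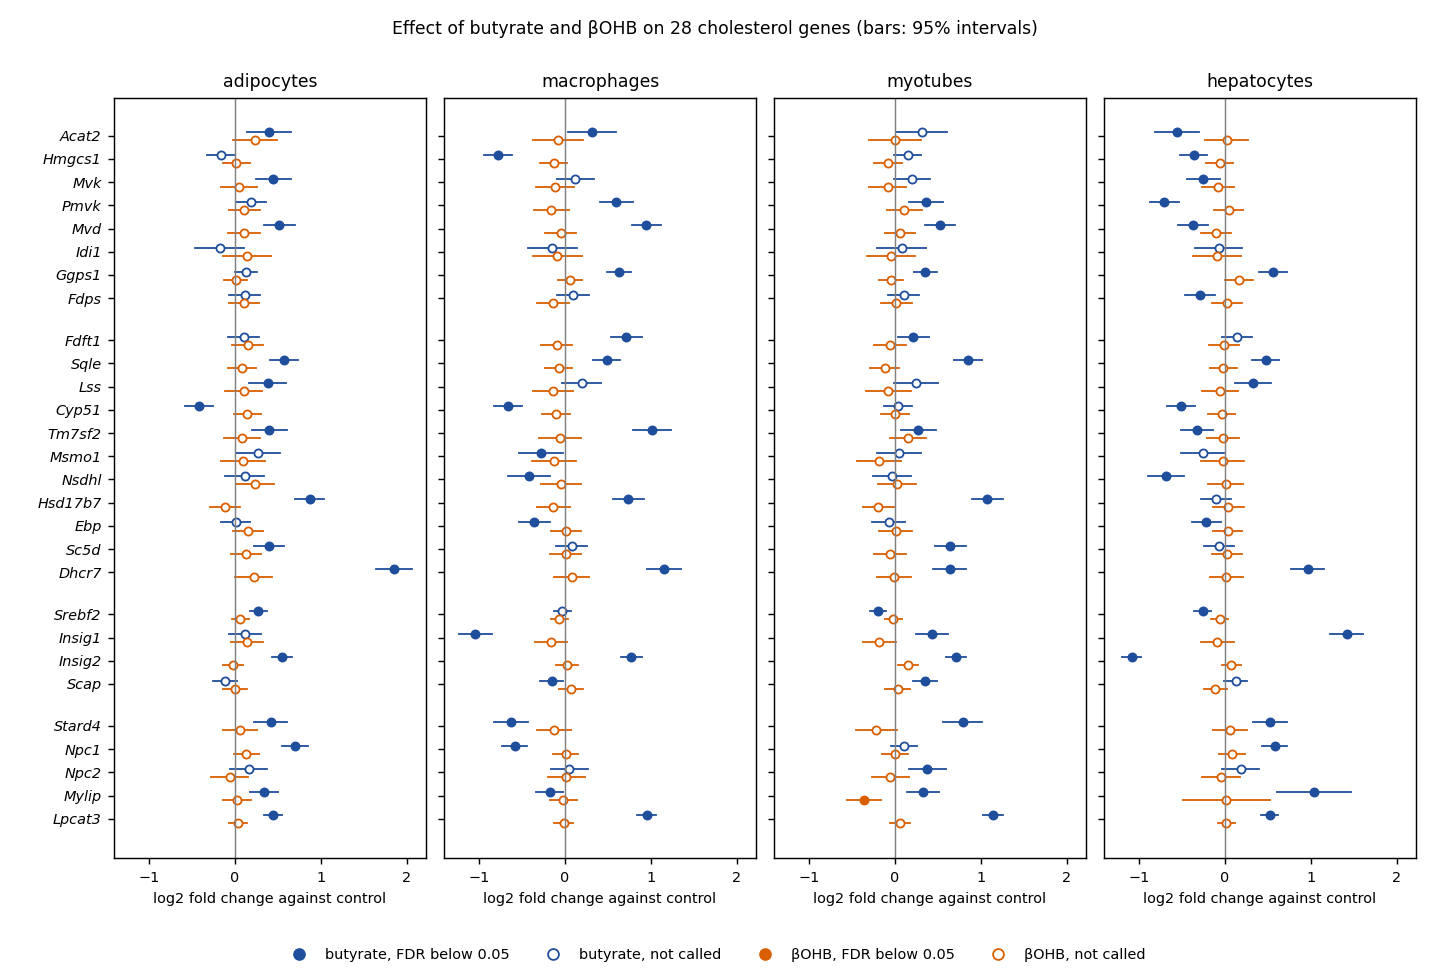
Log2 fold change against control (x axis) of the 28 genes (rows, grouped from top to bottom into mevalonate and isoprenoid enzymes, sterol enzymes, SREBP regulators, and transport and other genes) in each cell type, with 95% intervals. Blue points are butyrate and orange points βOHB, and filled points passed an FDR of 0.05; Insig1 ran from -1.05 in macrophages to 1.42 in hepatocytes under butyrate, and the only filled orange point is Mylip in myotubes.

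Of the SREBP regulators, Insig1 and Insig2 showed the widest differences between cell types among the 28 genes. They encode the sterol-sensing retention proteins, and moved in opposite directions in macrophages and again, the other way round, in hepatocytes. Insig1 (ENSMUSG00000045294, chromosome 5, 28071363 to 28078662 on GRCm38) stood at 249.4, 267.7 and 254.5 CPM in control hepatocytes and at 709.9, 684.5 and 669.0 CPM after butyrate. The groups lay far apart, and the rise was 2.67-fold (log2 fold change 1.42, SE 0.09, adjusted p = 2.68e-14). In macrophages Insig1 went from 107.9, 112.6 and 116.6 CPM to 56.5, 53.8 and 53.0 CPM, a 2.07-fold fall with no overlap (log2 fold change -1.05, SE 0.10, adjusted p = 5e-11). In myotubes it rose from 97.1, 99.0 and 101.0 CPM to 119.3, 122.3 and 158.6 CPM (log2 fold change 0.43, SE 0.09, adjusted p = 0.000176), with butyrate replicate 3 well above the other two. In adipocytes the control libraries had 451.0, 513.0 and 497.5 CPM and the butyrate libraries 547.3, 598.4 and 442.9 CPM, which overlapped (log2 fold change 0.12, SE 0.09, adjusted p = 0.26).

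Insig2 (ENSMUSG00000003721, chromosome 1, 121304353 to 121332589) fell in hepatocytes from 299.8, 314.2 and 275.5 CPM to 140.6, 139.0 and 138.9 CPM. This was a 2.13-fold decrease with no overlap (log2 fold change -1.09, SE 0.06, adjusted p = 8.04e-17). The gene rose in the other cell types. Macrophages had 28.3, 30.1 and 29.2 CPM as controls and 47.6, 48.9 and 53.4 CPM with butyrate (log2 fold change 0.77, SE 0.06, adjusted p = 1.56e-12). Myotubes went from 46.3, 49.3 and 45.8 CPM to 77.3, 81.0 and 72.7 CPM (log2 fold change 0.71, SE 0.06, adjusted p = 6.08e-12). Adipocytes went from 48.0, 47.6 and 43.2 CPM to 68.8, 64.2 and 69.7 CPM (log2 fold change 0.55, SE 0.06, adjusted p = 1.59e-09). In none of the 4 cell types did the control and butyrate libraries overlap for Insig2. The ratio of Insig1 to Insig2 CPM within a library went from 0.832, 0.852 and 0.924 in control hepatocytes to 5.05, 4.92 and 4.82 with butyrate, and from 3.81, 3.74 and 3.99 to 1.19, 1.10 and 0.991 in macrophages.

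**Figure D2:**
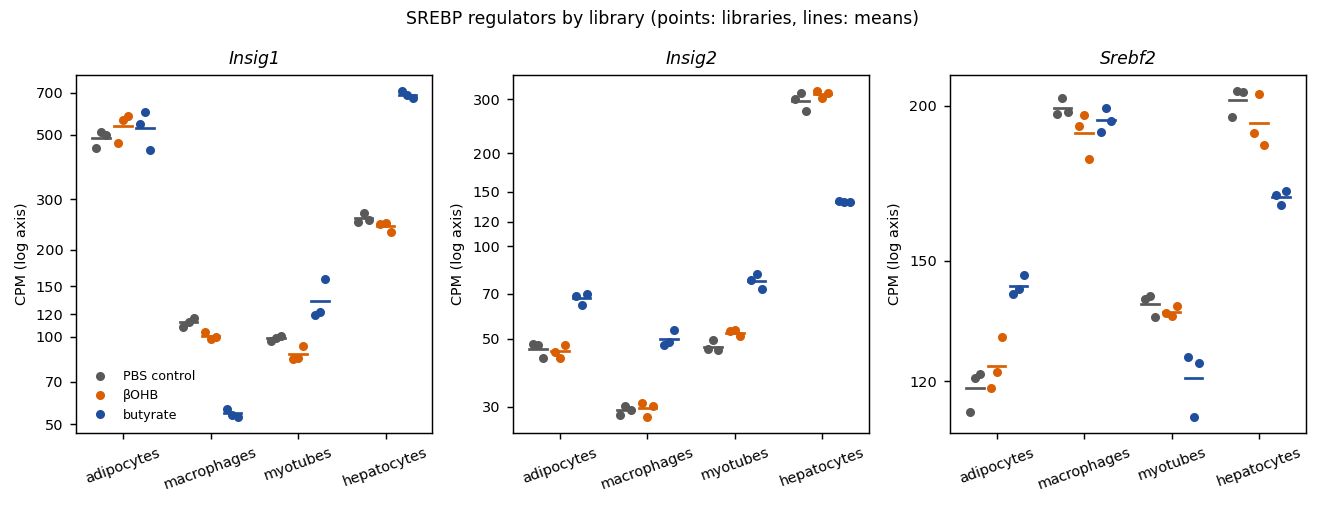
CPM on a log axis of Insig1, Insig2 and Srebf2 in each of the 36 libraries, by cell type and treatment, with a line at the mean of 3 libraries. With butyrate Insig1 lay near 688 CPM in hepatocytes and near 54.4 CPM in macrophages, whereas Insig2 lay near 139.5 CPM and 49.99 CPM.

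Changes of Srebf2, the gene of SREBP2 itself, and of its escort Scap were small. Srebf2 rose in adipocytes from 113.3, 120.6 and 121.5 CPM to 141.0, 142.5 and 146.0 CPM (log2 fold change 0.27, SE 0.05, adjusted p = 1.07e-05). It fell in hepatocytes from 195.8, 205.7 and 205.1 CPM to 169.6, 166.4 and 170.8 CPM (log2 fold change -0.26, SE 0.05, adjusted p = 1.9e-05). In myotubes it fell from 139.8, 140.5 and 135.1 CPM to 125.5, 112.3 and 124.2 CPM (log2 fold change -0.20, SE 0.05, adjusted p = 0.000559), a call that was lost with library totals alone. These 3 comparisons showed no overlap of libraries. In macrophages the values overlapped, at 197.0, 202.9 and 197.9 CPM in controls and 190.7, 199.3 and 194.5 CPM with butyrate (adjusted p = 0.576), and the direction turned with library totals alone (0.19). Scap rose in myotubes from 44.9, 47.3 and 44.8 CPM to 56.4, 56.4 and 61.7 CPM (log2 fold change 0.35, SE 0.07, adjusted p = 5.08e-05). Scap passed the threshold narrowly in macrophages with overlapping libraries, at 58.1, 63.7 and 58.2 CPM in controls and 49.9, 58.2 and 53.2 CPM with butyrate (log2 fold change -0.16, SE 0.07, adjusted p = 0.0429), and the call was lost without control replicate 2 or butyrate replicate 1 or 3, with the log2 fold change then running from -0.20 to -0.08 over all left-out libraries. With library totals alone the direction turned (0.07). In adipocytes (log2 fold change -0.12, SE 0.07) and hepatocytes (0.13, SE 0.07) Scap did not pass.

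Of the 8 mevalonate and isoprenoid enzymes, 3 rose and 0 fell in adipocytes, 4 rose and 1 fell in macrophages, 3 rose and 0 fell in myotubes, and 1 rose and 6 fell in hepatocytes, beside the 30.7% to 33.1% of all genes raised and 30.3% to 33.4% lowered per cell type that are given above. The list as a whole was not tested between cell types. The median log2 fold change of the 8 was 0.16, 0.22, 0.25 and -0.32. The exception in hepatocytes was Ggps1, which makes geranylgeranyl diphosphate at the side branch. It rose from 15.2, 11.4 and 13.1 CPM to 19.7, 20.1 and 18.7 CPM without overlap (log2 fold change 0.56, SE 0.08, adjusted p = 2.79e-07), and it also rose in macrophages (0.63, SE 0.07) and myotubes (0.35, SE 0.07). Pmvk, phosphomevalonate kinase, was the most strongly lowered enzyme in hepatocytes, from 44.8, 40.2 and 41.5 CPM to 27.2, 24.7 and 25.6 CPM, a 1.63-fold fall (log2 fold change -0.71, SE 0.08, adjusted p = 1.14e-08). The same gene rose in macrophages (log2 fold change 0.60, SE 0.09) and in myotubes (0.36, SE 0.10). Mvd, mevalonate diphosphate decarboxylase, rose in adipocytes (0.51, SE 0.09), macrophages (0.95, SE 0.08) and myotubes (0.52, SE 0.08) and fell in hepatocytes (-0.37, SE 0.09).

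Hmgcs1 and Mvd were called in opposite directions in macrophages. There Hmgcs1 fell from 188.8, 187.2 and 194.0 CPM to 115.8, 108.1 and 107.8 CPM, a 1.72-fold decrease with no overlap (log2 fold change -0.78, SE 0.08, adjusted p = 3.91e-10), while Mvd and Pmvk rose in the same libraries. Hmgcs1 also fell in hepatocytes, from 821.2, 792.1 and 879.8 CPM to 616.7, 654.1 and 668.0 CPM (log2 fold change -0.36, SE 0.08, adjusted p = 0.000124), and did not pass in adipocytes (-0.17, SE 0.08) or myotubes (0.15, SE 0.08). Acat2, the cytosolic thiolase at the entry of the pathway, rose in adipocytes (0.40, SE 0.13) and fell in hepatocytes (-0.56, SE 0.12). The adipocyte call was lost without control replicate 1, which at 41.1 CPM lay below the other controls at 62.1 and 63.9 CPM, and the log2 fold change was then 0.22. In macrophages Acat2 barely passed (0.31, SE 0.14, adjusted p = 0.0475), and the call was lost when any of the control libraries or butyrate replicate 1 or 3 was left out, with log2 fold changes from 0.28 to 0.37. Mvk, mevalonate kinase, rose in adipocytes (0.44, SE 0.10) and fell in hepatocytes (-0.25, SE 0.09), the latter no longer passing without control replicate 1 or 2 or butyrate replicate 2 (log2 fold change -0.29 to -0.22) or with library totals alone. Fdps, farnesyl diphosphate synthase, passed in hepatocytes alone (-0.29, SE 0.09), and Idi1, isopentenyl diphosphate isomerase, passed in no cell type, with log2 fold changes from -0.18 to 0.08.

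Of the 11 sterol enzymes, 6 rose and 1 fell in adipocytes, 5 rose and 4 fell in macrophages, 6 rose and 0 fell in myotubes, and 3 rose and 4 fell in hepatocytes, beside the same 30.7% to 33.1% of all genes raised and 30.3% to 33.4% lowered. Their median log2 fold change was 0.38, 0.19, 0.24 and -0.10. Dhcr7, which catalyses the final reduction to cholesterol, and Sqle, the squalene epoxidase, were the enzymes that rose in every cell type. Dhcr7 (ENSMUSG00000058454, chromosome 7, 143823145 to 143848410) went from 19.4, 24.4 and 27.7 CPM to 83.5, 87.3 and 86.3 CPM in adipocytes. This 3.6-fold rise was the largest of any of the 28 genes in any cell type (log2 fold change 1.85, SE 0.10, adjusted p = 1.21e-15). In macrophages Dhcr7 went from 40.3, 36.5 and 34.2 CPM to 81.5, 82.1 and 83.3 CPM (2.22-fold, log2 fold change 1.15, SE 0.10, adjusted p = 1.56e-11). In hepatocytes it went from 152.3, 155.8 and 157.6 CPM to 307.5, 285.3 and 314.2 CPM (1.95-fold, log2 fold change 0.96, SE 0.09, adjusted p = 2.05e-10). In myotubes the rise was smaller, from 78.1, 92.3 and 85.7 CPM to 136.6, 140.4 and 121.2 CPM (1.55-fold, log2 fold change 0.64, SE 0.09, adjusted p = 8.02e-07). Control and butyrate libraries did not overlap in any of the 4 cell types.

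Sqle rose from 50.04, 47.3 and 44.0 CPM to 79.9, 78.1 and 97.8 CPM in myotubes (1.81-fold, log2 fold change 0.86, SE 0.08, adjusted p = 1.1e-10), and its log2 fold changes in the other cell types were 0.57 (SE 0.08) in adipocytes, 0.48 (SE 0.08) in macrophages and 0.47 (SE 0.08) in hepatocytes. Hsd17b7, a sterol ketoreductase, rose in adipocytes, macrophages and myotubes and not in hepatocytes. In myotubes it went from 60.4, 51.0 and 54.2 CPM to 104.4, 100.5 and 144.3 CPM (2.11-fold, log2 fold change 1.08, SE 0.09, adjusted p = 5.76e-12), and in adipocytes from 104.6, 89.0 and 98.5 CPM to 184.1, 179.1 and 169.9 CPM (1.83-fold, log2 fold change 0.87, SE 0.09, adjusted p = 3.16e-10). The macrophage value was 0.74 (SE 0.09). In hepatocytes the control libraries had 91.1, 96.0 and 107.2 CPM and the butyrate libraries 90.9, 91.1 and 91.9 CPM, which overlapped (adjusted p = 0.311).

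**Figure D3:**
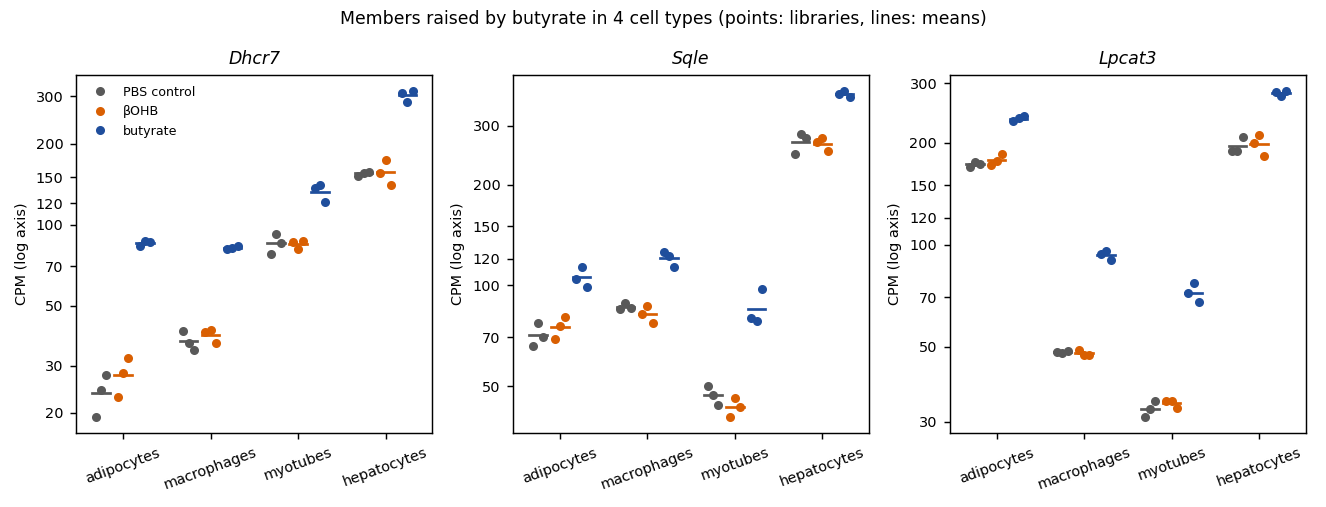
CPM on a log axis of Dhcr7, Sqle and Lpcat3 in each library, by cell type and treatment, with a line at the mean of 3 libraries. The butyrate libraries lie above all control and βOHB libraries of their cell type for each of the 3 genes, for Dhcr7 in adipocytes at 83.5 to 87.3 CPM against 19.4 to 32.0 CPM.

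Cyp51, the lanosterol demethylase, was the enzyme with the most falls. It went from 106.7, 105.7 and 104.8 CPM to 69.2, 65.9 and 64.9 CPM in macrophages (1.59-fold lower, log2 fold change -0.67, SE 0.08, adjusted p = 1.71e-08) and from 118.7, 147.9 and 146.8 CPM to 101.0, 114.8 and 94.0 CPM in adipocytes (1.33-fold lower, log2 fold change -0.42, SE 0.08, adjusted p = 3.67e-05). It also fell in hepatocytes (-0.51, SE 0.08) and did not pass in myotubes (0.04, SE 0.08). The next enzyme in the chain moved otherwise. Tm7sf2, a sterol reductase expressed at low levels, rose 2.02-fold in macrophages from 5.21, 4.84 and 5.41 CPM to 11.0, 9.98 and 10.3 CPM (log2 fold change 1.01, SE 0.11, adjusted p = 1.24e-09). Tm7sf2 also rose in adipocytes (0.40, SE 0.10) and fell in hepatocytes (-0.33, SE 0.09). Nsdhl, a sterol dehydrogenase, fell in hepatocytes from 180.2, 190.0 and 221.7 CPM to 121.6, 116.2 and 130.4 CPM (1.61-fold, log2 fold change -0.69, SE 0.10, adjusted p = 8.1e-07) and in macrophages (-0.42, SE 0.12, lost with library totals alone).

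**Figure D4:**
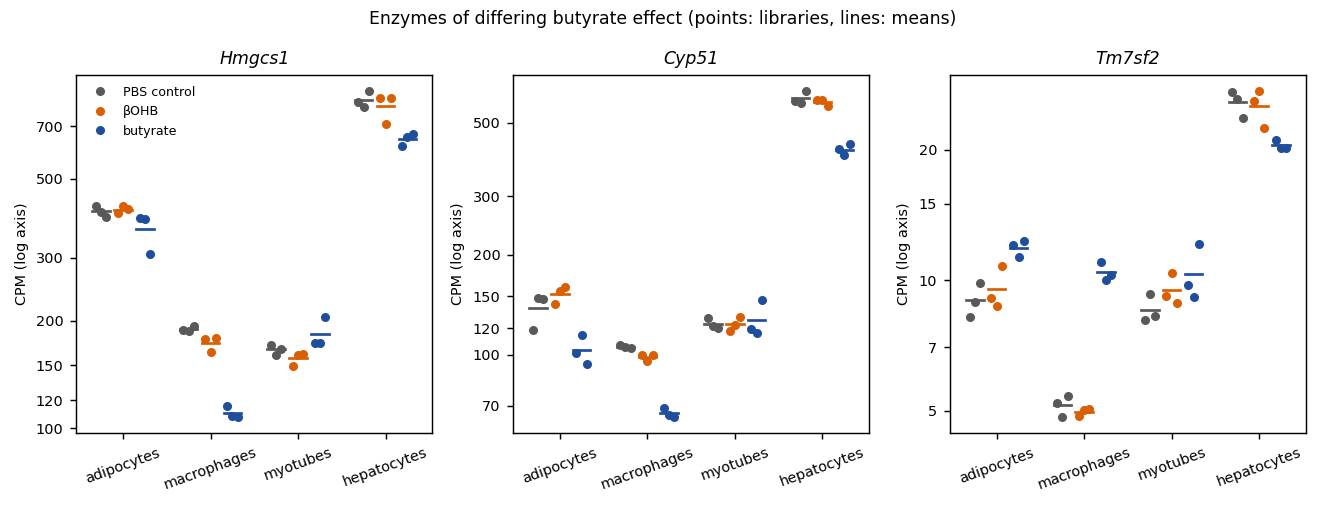
CPM on a log axis of Hmgcs1, Cyp51 and Tm7sf2 in each library, by cell type and treatment, with a line at the mean of 3 libraries. With butyrate in macrophages Hmgcs1 (107.8 to 115.8 CPM) and Cyp51 (64.9 to 69.2 CPM) lie below their controls, while Tm7sf2 (9.98 to 11.0 CPM) lies above its controls.

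The other sterol enzymes passed in 1 or 2 cell types each. Fdft1, squalene synthase, rose in macrophages (0.71, SE 0.09). Lss, lanosterol synthase, rose in adipocytes (0.38, SE 0.10) and hepatocytes (0.32, SE 0.10). Sc5d, a sterol desaturase, rose in adipocytes (0.40, SE 0.09) and myotubes (0.65, SE 0.09). Ebp, a sterol isomerase, fell in macrophages (-0.36, SE 0.09) and hepatocytes (-0.22, SE 0.08), both calls being lost with library totals alone, and the hepatocyte call also without control replicate 1 or 3 or butyrate replicate 2 or 3 (-0.27 to -0.17). Msmo1, a methylsterol oxidase, passed in macrophages alone (-0.28, SE 0.12, adjusted p = 0.0475), and the call was lost without any 1 of the 6 libraries (-0.30 to -0.22) and with library totals alone.

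Of the 5 genes of transport and lipid handling, 4 rose and 0 fell in each of adipocytes, myotubes and hepatocytes, whereas 1 rose and 3 fell in macrophages, 1 of these falls being the marginal one of Mylip described below. Per cell type 30.7% to 33.1% of all genes were raised and 30.3% to 33.4% lowered. Lpcat3, which adds polyunsaturated chains to phospholipids, rose in all 4. In myotubes it went from 31.1, 32.6 and 34.5 CPM to 71.8, 77.0 and 67.9 CPM, a 2.21-fold rise with no overlap (log2 fold change 1.14, SE 0.05, adjusted p = 5.15e-17), and the values elsewhere were 0.95 (SE 0.05) in macrophages, 0.52 (SE 0.05) in hepatocytes and 0.45 (SE 0.05) in adipocytes. Stard4, a cytosolic sterol carrier, rose in myotubes from 16.3, 14.0 and 13.2 CPM to 23.1, 24.8 and 27.4 CPM (log2 fold change 0.79, SE 0.11, adjusted p = 2.51e-07) and fell in macrophages (-0.63, SE 0.10). Npc1, the lysosomal membrane protein that exports cholesterol, rose in adipocytes from 83.0, 81.7 and 80.0 CPM to 132.1, 133.1 and 131.8 CPM (log2 fold change 0.70, SE 0.07, adjusted p = 1.24e-09). Npc1 was far more abundant in macrophages, where it fell from 624.5, 639.6 and 618.0 CPM to 422.7, 438.8 and 394.3 CPM (log2 fold change -0.58, SE 0.07, adjusted p = 1.92e-08). Mylip, the ligase that marks the LDL receptor for degradation, rose in hepatocytes from 0.878, 0.861 and 1.01 CPM to 1.38, 2.43 and 1.80 CPM (2.05-fold, log2 fold change 1.03, SE 0.21, adjusted p = 8.15e-05), at estimated counts as low as 13 in a hepatocyte library. It fell by a narrow margin in macrophages (-0.18, SE 0.08, adjusted p = 0.0452), a call lost without any 1 library except control replicate 1 (-0.22 to -0.13), and with library totals alone the direction turned (0.05). Npc2, which hands cholesterol to Npc1, passed in myotubes alone.

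In myotubes butyrate replicate 3 stood apart. Over all genes the mean chi-square between libraries was 40.5 and 45.7 for its pairs, against 9.17 between replicates 1 and 2 and at most 29.3 between libraries of any other group. Npc2 had 213.0, 192.9 and 182.6 CPM in control myotubes and 215.1, 212.4 and 335.6 CPM with butyrate (log2 fold change 0.37, SE 0.11, adjusted p = 0.00271). Without replicate 3 the Npc2 value was 0.13 (adjusted p = 0.125). Idi1 had 91.8 and 86.0 CPM in replicates 1 and 2 and 143.2 CPM in replicate 3, and Lss had 13.7, 13.7 and 24.2 CPM, with a log2 fold change of 0.24 that became -0.08 without replicate 3 and was not called in either case. Without this library 14 of the 28 genes were called instead of 17, all 14 of them among the 17, with 13 raised and 1 lowered. The calls lost were those of Fdft1 (0.21 against 0.10), Tm7sf2 (0.27 against 0.15) and Npc2. Sqle (0.86 against 0.75), Hsd17b7 (1.08 against 0.90) and Insig1 (0.43 against 0.29, adjusted p = 0.00448 without it) stayed past the threshold. Fibroblast markers summed to 1892 CPM in this library and to 1315 and 1356 CPM in replicates 1 and 2, and myotube markers to 13260 CPM against 18270 and 17710 CPM. Hepatocyte markers were highest in replicate 2 and not in replicate 3. Whether RNA of other cells had a part in the values of replicate 3 was not tested.

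**Figure D5:**
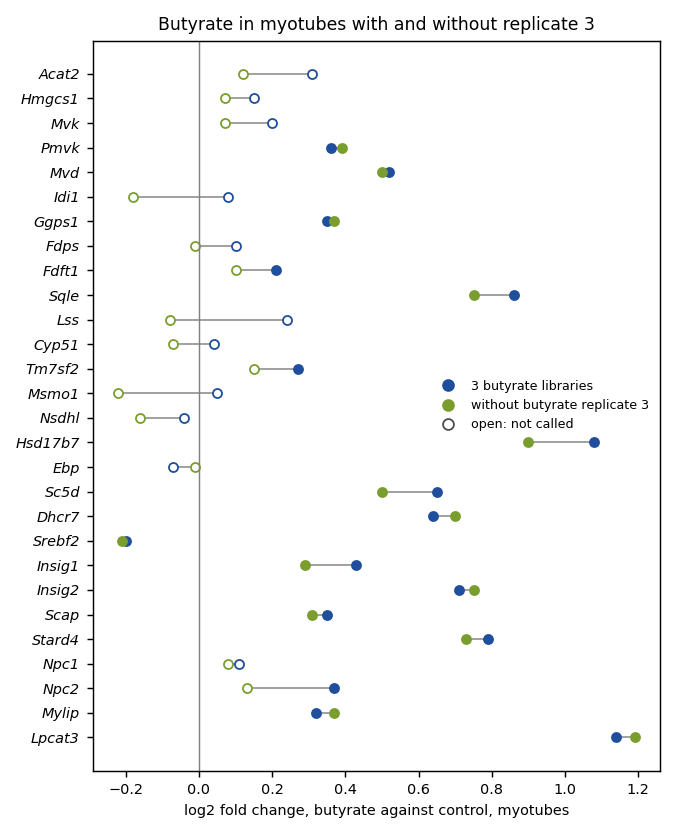
Log2 fold change of butyrate against control in myotubes (x axis) for the 28 genes, with all 3 butyrate libraries (blue) and without butyrate replicate 3 (green), where open points did not pass an FDR of 0.05. Idi1, Lss, Msmo1 and Npc2 shift most, Npc2 from 0.37 to 0.13, whereas Lpcat3 stays at 1.14 and 1.19.

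Whether the response to butyrate differed between cell types was tested with an F test of the 4 effects in the same model. It passed for 25 of the 28 genes, beside 74.5% of all genes, and Idi1, Lss and Npc2 did not pass. The widest spans between the lowest and the highest effect were 2.47 log2 units for Insig1 (adjusted p = 1.37e-14) and 1.86 for Insig2 (adjusted p = 3.54e-18). Against the mean effect of the other 3 cell types, 12 genes differed in adipocytes (9 higher and 3 lower), 15 in macrophages (7 and 8), 13 in myotubes (11 and 2) and 16 in hepatocytes (4 and 12), beside 32.9%, 39.9%, 42% and 46.3% of all genes. Those shares of all genes take both directions together, and the median difference over all genes was -0.0365 in hepatocytes. With library totals alone the split became 6 higher and 4 lower in adipocytes and 8 higher and 6 lower in macrophages. It was then 11 higher and 2 lower in myotubes and 3 higher and 17 lower in hepatocytes. The hepatocyte effect minus that mean was -1.09 log2 units for Pmvk (SE 0.10), -1.04 for Mvd (SE 0.10), -0.998 for Hsd17b7 (SE 0.10), -0.90 for Acat2 (SE 0.15) and -0.89 for Tm7sf2 (SE 0.11), and 0 of the 19 enzymes had a higher effect there past the threshold. In macrophages the same difference was -1.202 for Stard4 (SE 0.11) and -1.04 for Npc1 (SE 0.08). Of all 28 genes, 3 rose in 4 cell types and 0 fell in 4, beside 12.5% and 12.7% of all genes, and 12 rose in at least 1 and fell in at least 1, which was the case for 19.3% of all genes. The 12 include Scap and Mylip, through their marginal falls in macrophages. Mvk is also among them, through a fall in hepatocytes that was lost with library totals alone.

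βOHB changed almost none of these genes. In adipocytes, macrophages and hepatocytes 0 of 28 genes were called, beside 0.00652%, 0% and 0.00652% of all genes, and at an unadjusted p below 0.05 there were 1, 0 and 0, beside 1097, 358 and 845 of the 15340 genes. In myotubes 1 of 28 was called, beside 2.91% of all genes, and 3 had an unadjusted p below 0.05, beside 2104 of the 15340 genes. That gene was Mylip, with 11.8, 10.5 and 11.4 CPM in control and 9.37, 8.00 and 8.91 CPM in βOHB myotubes. The groups did not overlap and the fall was 1.28-fold (log2 fold change -0.36, SE 0.10, adjusted p = 0.0306). The call was lost without control replicate 1 or 3 or βOHB replicate 2 or 3, and in a fit of the myotube libraries alone, leaving 0 of 28, with log2 fold changes from -0.41 to -0.30 over the left-out libraries. Macrophage controls had 47.1 ± 2.64 CPM of Mylip (SD, n = 3), and macrophage markers were lower in βOHB than in control myotubes, as given above. Their part in this value was not tested.

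The 95% intervals of the βOHB effect, each for 1 gene and from the spread between these libraries, reached over the 28 genes from -0.29 to 0.49 in adipocytes, from -0.38 to 0.28 in macrophages, from -0.56 to 0.36 in myotubes and from -0.49 to 0.52 in hepatocytes on the log2 scale. The genes of smallest p outside myotubes were Nsdhl and Dhcr7 in adipocytes, Insig1 and Hmgcs1 in macrophages, and Ggps1 and Scap in hepatocytes. Nsdhl had 37.0, 50.2 and 46.5 CPM in control and 44.4, 48.7 and 64.1 CPM in βOHB adipocytes, which overlapped (adjusted p = 0.683), and Dhcr7 had 22.9, 28.2 and 32.0 CPM with βOHB (adjusted p = 0.7). Insig1 had 103.7, 98.1 and 99.6 CPM in βOHB macrophages (log2 fold change -0.16, SE 0.09, adjusted p = 1), just under its controls, and Hmgcs1 had 177.8, 163.2 and 178.8 CPM (-0.13, SE 0.08, adjusted p = 1). Ggps1 had 14.5, 13.7 and 16.4 CPM in βOHB hepatocytes (0.16, SE 0.08, adjusted p = 0.912), and Scap had 143.0, 156.6 and 127.4 CPM (-0.12, SE 0.07, adjusted p = 0.948), both overlapping their controls. In the F test among cell types 0 of the 28 genes passed for βOHB, beside 0.978% of all genes.

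Both compounds had been set against the same control libraries, so they were also contrasted directly, at the same dose and time. The contrast of butyrate with βOHB passed for 16 of 28 genes in adipocytes (14 higher and 2 lower with butyrate), 22 in macrophages (14 and 8), 19 in myotubes (18 and 1) and 21 in hepatocytes (10 and 11), beside 59.5%, 64.7%, 66% and 63.5% of all genes. With library totals alone 17 genes were higher and 1 lower in adipocytes, while macrophages had 17 higher and 5 lower, myotubes 24 higher and 0 lower, and hepatocytes 12 higher and 9 lower. The 28 genes were compared in this way in each of the 4 cell types, with adjustment over all 15340 genes. Insig1 differed by 1.51 (95% interval 1.32 to 1.70) in hepatocytes, -0.88 (-1.08 to -0.69) in macrophages and 0.61 (0.42 to 0.81) in myotubes, and not past the threshold in adipocytes, where the interval was -0.21 to 0.16. Insig2 differed by -1.16 (-1.28 to -1.05) in hepatocytes. Dhcr7 differed by 1.63 (1.42 to 1.84) in adipocytes and by 0.65 (0.45 to 0.84) in myotubes. Lpcat3 differed by 0.41 to 1.09 over the 4 cell types. Lss, which passed against control in adipocytes and hepatocytes, passed against βOHB in each cell type, with differences from 0.28 to 0.39. In myotubes this rested on butyrate replicate 3, since without it the difference for Lss was 0 (adjusted p = 0.993), and the calls of Hmgcs1 (0.23 against 0.15), Mvk (0.28 against 0.16) and Fdft1 (0.27 against 0.16) were lost as well. For Mylip in myotubes the difference was 0.68 (0.49 to 0.87). For Idi1 the interval in adipocytes was -0.60 to -0.03 (adjusted p = 0.0501), and Idi1 and Msmo1 were the genes that did not pass in any cell type.

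The neighbours of the pathway were taken from 3 further lists. Among 9 genes of SREBP processing and turnover, butyrate raised 2 and lowered 6 in adipocytes, raised 0 and lowered 7 in macrophages, raised 1 and lowered 4 in myotubes, and raised 4 and lowered 3 in hepatocytes. The same shares of all genes, 30.7% to 33.1% raised and 30.3% to 33.4% lowered, stand beside the counts of each of the 3 lists. Srebf1, the gene of SREBP1, fell from 440.5, 432.9 and 473.5 CPM to 273.7, 266.5 and 286.3 CPM in adipocytes and rose from 93.1, 104.5 and 103.5 CPM to 198.4, 180.6 and 195.0 CPM in hepatocytes (-0.70, SE 0.06, and 0.93, SE 0.06). Erlin1 likewise fell in macrophages (-0.67, SE 0.07) and rose in hepatocytes (0.68, SE 0.07).

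Among 16 genes of sterol storage, transport and efflux, 8 rose and 4 fell in adipocytes, 5 and 7 in macrophages, 10 and 1 in myotubes, and 8 and 5 in hepatocytes. Stard5 (0.23 to 1.38), Gramd1a (0.21 to 1.28) and Scarb1, the HDL receptor (0.23 to 0.65), rose in all 4. Abca1, the cholesterol efflux pump, fell in macrophages from 215.6, 215.2 and 208.5 CPM to 98.1, 101.9 and 90.1 CPM (-1.14, SE 0.12) and rose in hepatocytes from 138.9, 186.8 and 194.4 CPM to 337.9, 337.2 and 328.2 CPM (0.95, SE 0.11). Abcg5, a sterol transporter of liver, fell in hepatocytes (-0.51, SE 0.20) and passed as raised in myotubes at no more than 0.283 CPM, in the libraries that also held hepatocyte markers. Under βOHB 3 of the 16 genes of this list fell in myotubes (18.8%, beside 2.91% of all genes called), namely Soat1 (-0.27, SE 0.06), Lipa (-0.51, SE 0.11) and Abca1 (-0.65, SE 0.14), and macrophage controls held 813.3, 1531 and 213.1 CPM of these against 66.4, 52.0 and 21.4 CPM in myotube controls. Whether RNA of macrophages had a part in these values was not tested.

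Among 13 genes of the isoprenoid branch, 3 rose and 9 fell in adipocytes, 3 and 7 in macrophages, 1 and 7 in myotubes, and 2 and 6 in hepatocytes. Fntb, the farnesyltransferase subunit (-1.33 to -0.48), and Pdss2, of ubiquinone side chain synthesis (-0.77 to -0.31), fell in all 4, and Icmt, which methylates prenylated proteins, rose in all 4 by nearly the same amount (0.42 to 0.46). Dhdds and Nus1, the subunits of the dolichol synthase, did not move together, since Dhdds fell in myotubes (-0.52, SE 0.05) and rose in macrophages (0.31, SE 0.05), and Nus1 rose in hepatocytes (0.47, SE 0.06) and fell in macrophages (-0.27, SE 0.06). Dhdds, as 1 of the 13 (7.69%, beside 2.91% of all genes called), also rose in myotubes under βOHB, from 38.5, 38.1 and 39.9 CPM to 43.9, 45.3 and 44.4 CPM (0.20, SE 0.05, adjusted p = 0.0308).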

How the data were processed

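RNA was measured in 36 libraries, 3 for each of 12 groups. The authors deposited one table of estimated counts for 54347 genes. They made it with Salmon 1.2.1 on GENCODE M25 transcripts (GRCm38.p6) and summed transcripts to genes with tximport, and 55.6% of values above 0 were exactly whole. Groups were taken from the sample titles. Symbols were matched for 54094 identifiers. The estimated counts were rounded, genes with more than 1 CPM in at least 6 libraries were kept (15340), and a group-means model over all 36 libraries was fitted with edgeR 4.0.16 (TMM, quasi-likelihood F test, R 4.3.3). P-values were adjusted by Benjamini-Hochberg over all genes tested, and a call is an FDR below 0.05. Errors of fold changes are standard errors from this fit. Library totals had a median of 22177562, and counting error limits genes of few counts most. The code was tested on simulated counts. limma 3.58.1 (voom), DESeq2 1.42.0, other scalings, filters, a threshold and a replicate block, and the fit without each library, were tried as alternatives.

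The 28 genes and the gene lists were chosen with earlier results of these data known. Values per library are given for the 4 SREBP regulators, for the 2 raised and the 2 lowered enzymes of largest change in each cell type under butyrate, for genes called under βOHB or else the 2 of smallest p, and for each gene of transport in the cell type of its largest change. Of each neighbour list, up to 3 genes called in one direction in all 4 cell types and up to 2 called in opposite directions are named, with any called under βOHB. Some genes that this rule picks are not reported here. The values of Idi1 and Lss in myotube butyrate libraries, the effects quoted without values per library, and the further cell types of Dhcr7, Npc1, Hmgcs1, Srebf1, Abca1 and Dhdds were added to this rule after the values were seen. Promoter windows came from RefSeq on GRCm38.p6, and Npc1, Sqle, Stard4, Fdft1 and Fdps had no window.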

Additional observations from a re-analysis of the deposited data

Results flagged for a closer look

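The effect of butyrate differed between the 4 cell types for 25 of the 28 genes in the edgeR F test, with adjusted p from 3.54e-18 for Insig2 to 0.0379 for Ebp. The size given here is the highest minus the lowest log2 fold change among the cell types. Among the mevalonate and isoprenoid enzymes it was 1.32 for Mvd, 1.30 for Pmvk, 0.96 for Acat2, 0.93 for Hmgcs1, 0.70 for Mvk, 0.50 for Ggps1 and 0.40 for Fdps. Among the sterol enzymes it was 1.34 for Tm7sf2, 1.21 for Dhcr7, 1.18 for Hsd17b7, 0.80 for Nsdhl, 0.72 for Sc5d, 0.70 for Cyp51, 0.61 for Fdft1, 0.55 for Msmo1, 0.38 for Sqle and 0.37 for Ebp. Sqle and Dhcr7 therefore differed in the size of a rise seen in every cell type. Among the regulators the span was 2.47 for Insig1, 1.86 for Insig2, 0.53 for Srebf2 and 0.51 for Scap. For the genes of transport and lipid handling it was 1.41 for Stard4, 1.28 for Npc1, 1.21 for Mylip and 0.70 for Lpcat3. The test did not pass for Idi1 (adjusted p = 0.599), Lss (0.652) and Npc2 (0.232). No test of a single outlying value per gene was run in groups of 3 libraries.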

How the results depend on the processing

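Of the 224 member effects of butyrate and βOHB against control, 76 were called, and 57 of these stayed called in the same direction under every alternative and every left-out library. With DESeq2 6 effects gained and 2 lost the call, with limma-voom 3 and 1, with RLE factors 3 and 3, without a filter 5 and 4, and with the libraries of the cell type only 7 and 4. An unadjusted p below 0.001 removed 16. With library totals alone 17 gained and 6 lost the call, and 3 effects in macrophages turned direction, namely those of Srebf2 (0.19), which had not been called, Scap (0.0672) and Mylip (0.0479). The βOHB effect in myotubes held for 0 of 28 genes with the libraries of the cell type only, and for 0 to 1 with a library left out. At an unadjusted p below 0.001, 7 genes (5 higher and 2 lower) differed between adipocytes and the mean of the other cell types, instead of 12. Leaving out libraries gave 15 to 18, 17 to 19, 14 to 20 and 19 to 21 genes called under butyrate in adipocytes, macrophages, myotubes and hepatocytes.

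The deviations of same-numbered libraries from their group means had correlations of -0.29 to 0.33, under 0.1 in part, so the numbers were not taken as a pairing. In adipocytes they were 0.33, -0.18 and 0.28 between control and βOHB, and 0.15, 0.13 and 0.07 between control and butyrate. Whether libraries were paired in that cell type cannot be told from these values. With the replicate block 19, 21, 18 and 21 genes were called under butyrate and 0, 0, 1 and 0 under βOHB, 4 effects gained the call and 0 lost it. With 3 libraries per group, effects near the threshold, such as those of Acat2, Msmo1, Scap and Mylip in macrophages, lost the call when almost any library, or for Scap any of 3, was left out.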
